A study of Homo sapiens with 9 samples.

Results

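The inter-alpha-trypsin inhibitor family was analyzed in RNA-seq values of Huh7 cells, an established line of human hepatocellular carcinoma (HCC) cells. The family was taken as 6 genes, the heavy chains ITIH1 (Entrez gene number 3697), ITIH2 (3698), ITIH3 (3699), ITIH4 (3700) and ITIH5 (80760) and the light chain precursor AMBP (259), out of 20575 genes with a value. It was chosen on values of these data, because ITIH1 was among the genes raised most in siLATS1 against siControl. For the members this comparison is therefore a description without a p-value. Only 3 of the 6 members, AMBP, ITIH2 and ITIH1, reached at least 1 CPM (the unit of the files, a count corrected for the depth of its sample) in at least 3 of the 9 samples and so entered the fit of 12901 genes, and ITIH1 did so only through the group in which it was high. ITIH3, ITIH4 and ITIH5 stayed under this limit and are described by their reads.

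Inter-alpha-trypsin inhibitors are liver-secreted plasma proteins. AMBP is cut into alpha-1-microglobulin, a small heme- and radical-binding protein, and bikunin, a Kunitz-type inhibitor of serine proteases such as trypsin and plasmin. Bikunin carries a chondroitin sulfate chain, to which the heavy chains of ITIH1, ITIH2 and ITIH3 are joined. From this chain the heavy chains are passed on to hyaluronan in the extracellular matrix, a transfer catalyzed by TNFAIP6 (TSG-6). ITIH4 lacks the site for this link and circulates as an acute phase protein, and ITIH5 is a family member expressed mainly outside the liver.

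The 9 samples fell into 3 groups of 3, all of Huh7 cells transfected with RNAiMAX and harvested 48 h later. The groups received siControl, siLATS1 or siLATS2, the last pair directed against the Hippo pathway kinases LATS1 and LATS2. The siRNA is the only agent in the sample labels, and although the text of the study also speaks of sorafenib for this experiment, samples are named here by siRNA. The knockdown was transient and made in a single cell line. The labels do not say whether replicates were separate cultures, whereas the study's methods call them biological triplicates, and p-values measure the spread between these samples. In such bulk samples, fewer cells of a type and less RNA per cell cannot be told apart. Depth was 23548247 to 32193525 reads per sample, 1 read being worth 0.0311 to 0.0425 CPM, and all levels are given as CPM after scaling with TMM factors, which align the bulk of genes between samples by a trimmed mean of their ratios.

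The siControl replicate 1 stood apart from the other siControl samples. Pearson's r of log2(CPM + 1) across the tested genes was 0.859 and 0.866 between it and the other siControl samples, which had an r of 0.995 with each other, and it listed 4369 genes at 0 against 3369 to 3804 in the other 8 samples. Its deviation from the group mean was partly shared with samples of other groups. Over the tested genes, r of these deviations was 0.92, 0.24 and -0.89 with siLATS1 replicates 1, 2 and 3. With siLATS2 replicates 1, 2 and 3 it was -0.49, 0.87 and -0.87. Values that turned sign or changed a call without siControl replicate 1 are given both ways for the members and the genes named. All 12 markers of hepatocytes, among them ALB and HNF4A, had a mean of at least 1 CPM, and their summed level was 18873 to 23269 CPM in siControl, 19399 to 22595 CPM in siLATS1 and 17439 to 19618 CPM in siLATS2. Of the fibroblast or stellate cell markers 4 of 7 reached 1 CPM (132 to 263 CPM summed over the list in all samples), of the endothelial markers 1 of 4 (0.722 to 2.65 CPM) and of the leukocyte markers 1 of 5 (1.81 to 12.7 CPM).

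LATS1 itself (GRCh37, chr6:149979289-150039241, minus strand) checked the labels. Its level was 110, 55.2 and 62.9 CPM in siControl replicates 1, 2 and 3, 27.1, 20.1 and 15.6 CPM in siLATS1, and 54.7, 78.6 and 51.2 CPM in siLATS2. All 3 siLATS1 samples lay below the other 6. The log2 fold change of CPM + 1 in siLATS1 against siControl was -1.78 (SE 0.31, limma adjusted p = 0.126, by the Benjamini-Hochberg method over all tested genes) with siControl replicate 1 and -1.50 without it. Of the tested genes 2.71% lay below siControl in all siLATS1 samples, and 6.64% below siLATS2. LATS2 was not analyzed here.

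The oligonucleotides of the siLATS1 pool are shown because all siLATS1 values depend on them and because a small RNA can also act on other transcripts through its seed. The listed strand is given 5′ to 3′, with its bases 12 to 18, which pair with the seed of the opposite strand, in capitals.
Oligonucleotide 1: ggugaagucugUCUAGCAa
Oligonucleotide 2: uagcauggauuUCAGUAAu
Oligonucleotide 3: gguaguucgucUAUAUUAu
Oligonucleotide 4: gaaugguacugGACAAACu
All 4 matched LATS1 over their whole 19 bases, at chr6:150001437-150001455 (exon 5), chr6:149997836-149997854 (exon 6), chr6:150001294-150001312 (exon 5) and chr6:150005163-150005181 (exon 4) of GRCh37, and none matched a member in full. The 7 capital bases occurred once in the ITIH2 transcript for oligonucleotides 1 and 3 each, and once in ITIH1 and once in ITIH5 for oligonucleotide 4, while AMBP, ITIH3 and ITIH4 held none. Over 18922 reference transcripts, 12.6%, 18.2%, 21.2% and 16% held the capitals of oligonucleotides 1 to 4.

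AMBP, the light chain precursor, was the most abundant member by far (GRCh37, chr9:116822407-116840608, minus strand, 10 exons). Its level was 485, 1520.3 and 1266 CPM in siControl replicates 1, 2 and 3, which gave 1090.2 ± 539.7 CPM (SD, n = 3). It was 1296, 1497 and 1705 CPM in siLATS1, and 1620.0, 1203 and 1685 CPM in siLATS2. The low siControl mean came from replicate 1, and the other 8 samples of all groups lay intermixed between 1203 and 1705 CPM. AMBP ranked 42 of 20575 genes by its mean level over the 9 samples.
The log2 fold change of AMBP was 0.61 (SE 0.39) in siLATS1 against siControl and 0.60 (SE 0.39, adjusted p = 0.95, limma) in siLATS2 against siControl, comparisons that share the siControl samples. Without siControl replicate 1 these values were 0.09 (SE 0.18) and 0.08 (SE 0.18, adjusted p = 0.999, limma). Between siLATS1 and siLATS2 it was 0.0035 (SE 0.39, adjusted p = 1.0, limma).

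ITIH2, which encodes the second heavy chain of the plasma inhibitor, was the main heavy chain in these cells (GRCh37, chr10:7745279-7791483, plus strand, 21 exons). It was measured at 190, 137 and 101 CPM in siControl, 239, 164 and 190 CPM in siLATS1, and 148, 128 and 115 CPM in siLATS2. The siLATS1 samples overlapped siControl only through siControl replicate 1, and all 3 lay above the 3 siLATS2 samples, as 5.8% of the tested genes did.
For ITIH2 the log2 fold change was 0.50 (SE 0.25) in siLATS1 against siControl, and 0.72 (SE 0.20) without siControl replicate 1. In siLATS2 against siControl it was -0.09 (SE 0.25, adjusted p = 0.95, limma), and 0.13 (SE 0.20, adjusted p = 0.999) without that sample, a change of sign. Directly compared, siLATS1 exceeded siLATS2 by 0.59 (SE 0.25), which passed the unadjusted threshold of the study's methods (p under 0.05, log2 fold change of at least 0.58), as did 1.34% of the tested genes in this direction. It did not pass after adjustment (adjusted p = 1.0, limma), and the exact two-sided permutation test gave p = 0.1, the smallest value that 3 against 3 samples allow.

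ITIH1, the first heavy chain, was close to the detection limit in control cells and was the member that led to the choice of the family (GRCh37, chr3:52811611-52826084, plus strand, 22 exons). It had 7, 9 and 4 reads in siControl, 93, 71 and 88 reads in siLATS1, and 36, 12 and 15 reads in siLATS2. Scaled, this was 0.307, 0.362 and 0.148 CPM in siControl, 3.18, 2.54 and 3.53 CPM in siLATS1, and 1.119, 0.437 and 0.538 CPM in siLATS2. The 3 groups did not overlap, with siLATS1 highest, siLATS2 between and siControl lowest, and 5.77% of the tested genes lay above siControl in all siLATS1 samples. The summed reads of 20, 252 and 63 have exact 95% Poisson intervals of 12.2 to 30.9, 222 to 285 and 48.4 to 80.6 reads, which cover counting error only.
The mean of ITIH1 in siLATS1 was 3.08 ± 0.505 CPM against 0.272 ± 0.111 CPM in siControl (SD, n = 3 each), a ratio of 11.3, or 12.1 without siControl replicate 1. The log2 fold change of CPM + 1 was 1.68 (SE 0.18) and thus far smaller than this ratio, since the added 1 exceeds the control level. With the whole reads and no added 1, edgeR put it at 3.46. By size of the log2 fold change ITIH1 ranked 14 of 12901, just after the matrix protein gene TNC (1.73) and just before TAGLN (1.66), which encodes an actin-binding protein of smooth muscle. It was 1 of the 13 genes (0.101% of those tested) called higher at an adjusted p under 0.05 and a log2 fold change of at least 0.58, and nothing is read from this, because the same values chose it.
In siLATS2 the mean of ITIH1 was 0.698 ± 0.368 CPM (SD, n = 3), 2.56 times that of siControl. All 3 siLATS2 samples were above all 3 siControl samples, a pattern found in 2.87% of the tested genes. The log2 fold change was 0.40 (SE 0.18), and 0.42 (SE 0.20) without siControl replicate 1. It is given without a p-value, since the siControl samples were used in choosing ITIH1.
In siLATS1 the level of ITIH1 was 4.42 times that in siLATS2, with a log2 fold change of 1.28 (SE 0.18), or 2.13 on whole reads in edgeR. No p-value is given here for the same reason, as the siLATS1 samples also entered the choice. The plot of the members by sample shows how different the scales of these genes are.

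**Figure D1:**
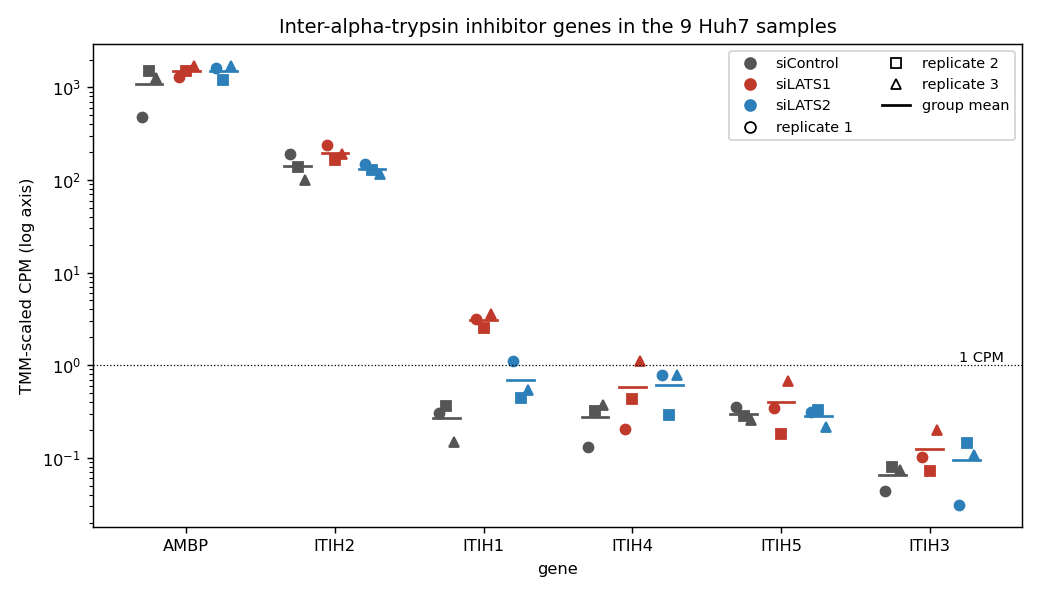
Level of the 6 family members in each sample, in TMM-scaled CPM on a log axis, with 1 point per sample (color, siRNA group; shape, replicate) and a line at each group mean. Only ITIH1 separated siLATS1 (2.54 to 3.53 CPM) from both other groups (0.148 to 1.119 CPM) without overlap, while AMBP showed a single low sample, siControl replicate 1 at 485 CPM.

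ITIH3 and ITIH4, the other genes of the cluster with ITIH1 on chromosome 3, were barely read. ITIH3, the third heavy chain of the plasma inhibitor (GRCh37, chr3:52828784-52842815, plus strand), had 1, 2 and 2 reads in siControl, 3, 2 and 5 reads in siLATS1, and 1, 4 and 3 reads in siLATS2. ITIH4 (chr3:52846978-52864704, minus strand) had 3, 8 and 10 reads in siControl, 6, 12 and 28 reads in siLATS1, and 25, 8 and 22 reads in siLATS2. ITIH5 (chr10:7601232-7708961, minus strand) had 8, 7 and 7 reads in siControl, 10, 5 and 17 reads in siLATS1, and 10, 9 and 6 reads in siLATS2. In all 3 genes the groups overlapped in every comparison. When all 19597 genes with a read were fitted, the adjusted p of these genes in siLATS2 against siControl and in siLATS1 against siLATS2 was 0.98 to 1.0 (limma), and no difference was detected. Reads of ITIH4 are uncertain, because 3275 exonic bases are shared with an annotated readthrough gene on the same strand and 228 bases lie opposite to ITIH4-AS1, and the strand setting of the counting is not given in the sources used here. The other 5 members shared no stretch of 81 bases, the read length, with a transcript of another gene.

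Per kilobase of the reference transcript, the order of the mean levels in siControl was AMBP (864 CPM per kb), ITIH2 (45.4), ITIH1 (0.0937), ITIH4 (0.0835), ITIH5 (0.0442) and ITIH3 (0.0236). ITIH1 and ITIH4, and ITIH4 and ITIH5, were not separated in siControl, as their samples overlapped. In siLATS1 ITIH1 was at 1.06 CPM per kb, its 3 samples from 0.874 to 1.22 lying above all 3 of ITIH4 (0.0625 to 0.343), and was far below ITIH2 at 62.9 CPM per kb. The order in siLATS2 was AMBP (1191), ITIH2 (41.4), ITIH1 (0.24), ITIH4 (0.189), ITIH5 (0.0424) and ITIH3 (0.0339), where ITIH1 and ITIH4 overlapped, as did ITIH5 and ITIH3.

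**Figure D2:**
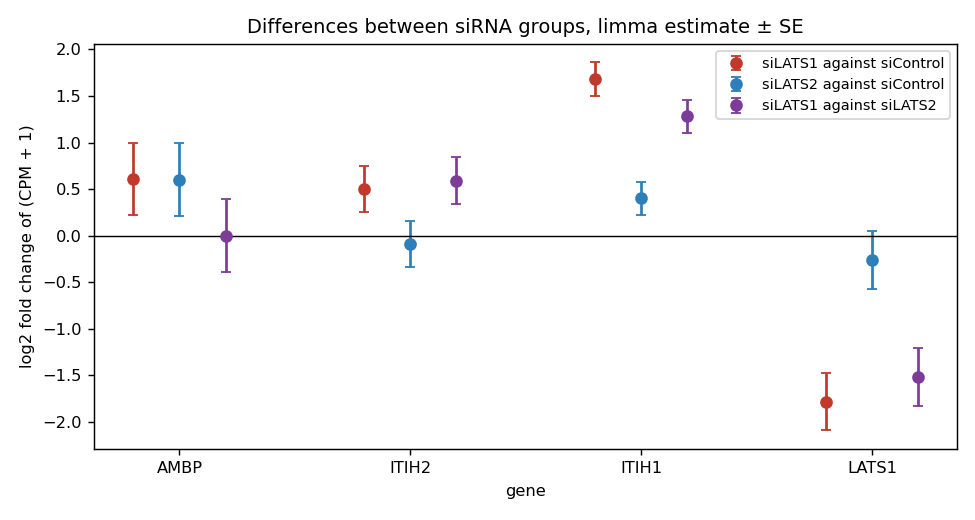
Log2 fold change of CPM + 1 with its standard error from limma (vertical axis) for AMBP, ITIH2, ITIH1 and LATS1 in the 3 comparisons of siRNA groups (colors). ITIH1 lay at 1.68, 0.40 and 1.28 in siLATS1 against siControl, siLATS2 against siControl and siLATS1 against siLATS2, and LATS1 at -1.78, -0.26 and -1.52.

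Heavy chains and bikunin form a common complex, so the heavy chains were also set against AMBP within each sample, a ratio that no scaling between samples can move. Per 100 CPM of AMBP the 5 heavy chain genes together had 39.4, 9.08 and 8.03 CPM in siControl, 18.8, 11.2 and 11.5 CPM in siLATS1, and 9.25, 10.8 and 6.92 CPM in siLATS2. The value of siControl replicate 1 stood far above all others, and in this sample AMBP was lowest of the 9. ITIH2 supplied nearly all of the sum, and ITIH1 gave 0.152% to 0.207% of the family's reads in siLATS1 and 0.0108% to 0.0632% in the other samples. The log2 ratio in siLATS1 minus that in siControl was -0.09, and 0.65 without siControl replicate 1. For siLATS2 minus siControl it was -0.69 (exact permutation p = 0.7), and 0.05 without that sample. All 3 siLATS1 samples exceeded all 3 siLATS2 samples, by 0.60 on average (exact permutation p = 0.1, the smallest possible).

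**Figure D3:**
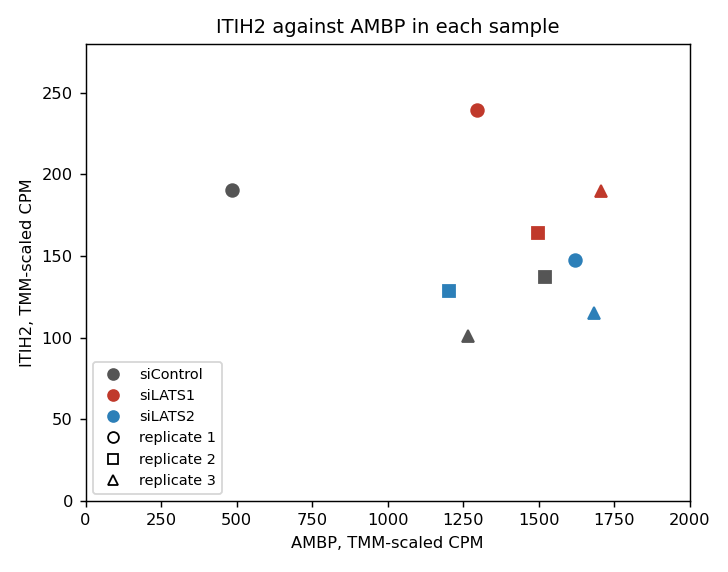
ITIH2 (vertical axis) against AMBP (horizontal axis) in TMM-scaled CPM, with 1 point per sample (color, siRNA group; shape, replicate). The sample at 485 CPM of AMBP and 190 CPM of ITIH2 is siControl replicate 1, and in the other 8 samples AMBP lay between 1203 and 1705 CPM.

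Genes next to the members on the chromosomes were examined, because ITIH1, ITIH3 and ITIH4 lie side by side, as do ITIH2 and ITIH5. ITIH3 starts 2700 bases after the end of ITIH1, and 4163 bases separate the end of ITIH3 from ITIH4, which lies on the minus strand. Upstream of ITIH1, the kinase gene NEK4 had a log2 fold change of 0.05 (SE 0.17, adjusted p = 0.979, limma) in siLATS1 against siControl, the signal peptidase subunit gene SPCS1 -0.19 (SE 0.27) and GLT8D1 -0.03 (SE 0.21). Beyond ITIH4, STIMATE-MUSTN1 and STIMATE had 0.01 (SE 0.20) and 0.11 (SE 0.17). The adjusted p of these 5 neighbors was 0.979 to 0.997 (limma), and without siControl replicate 1 their log2 fold changes ran from -0.17 for STIMATE-MUSTN1 to 0.18 for GLT8D1, with SPCS1 at 0.05 and STIMATE at -0.02. Beside ITIH2, KIN had -0.13 (SE 0.25), the ATP synthase subunit gene ATP5F1C -0.35 (SE 0.26) and TAF3 -0.09 (SE 0.18), and PFKFB3, on the far side of ITIH5, 0.22 (SE 0.24), and without siControl replicate 1 these 4 were 0.11, -0.11, -0.13 and -0.03.
The nearest gene to AMBP, ZNF618, ended 3534 bases away on the other strand. It had 0.703, 1.125 and 0.848 CPM in siControl, 2.73, 2.04 and 3.01 CPM in siLATS1, and 0.808, 1.02 and 1.04 CPM in siLATS2. All 3 siLATS1 samples were above the other 6, where 5.77% of the tested genes lay above siControl and 5.8% above siLATS2 in all siLATS1 samples. The log2 fold change of ZNF618 against siControl was 0.92 (SE 0.15), which missed the threshold (adjusted p = 0.0959, limma). Without siControl replicate 1 it was 0.84 (adjusted p = 0.0831, limma). KIF12 (0.76, SE 1.02), COL27A1 (0.30, SE 0.57), RGS3 (0.04, SE 0.50) and the acute phase gene ORM1 (-0.83, SE 0.22, adjusted p = 0.40) did not pass either. These values were -0.59, -0.35, -0.61 and -0.89 without siControl replicate 1, so that the first 3 turned sign.

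**Figure D4:**
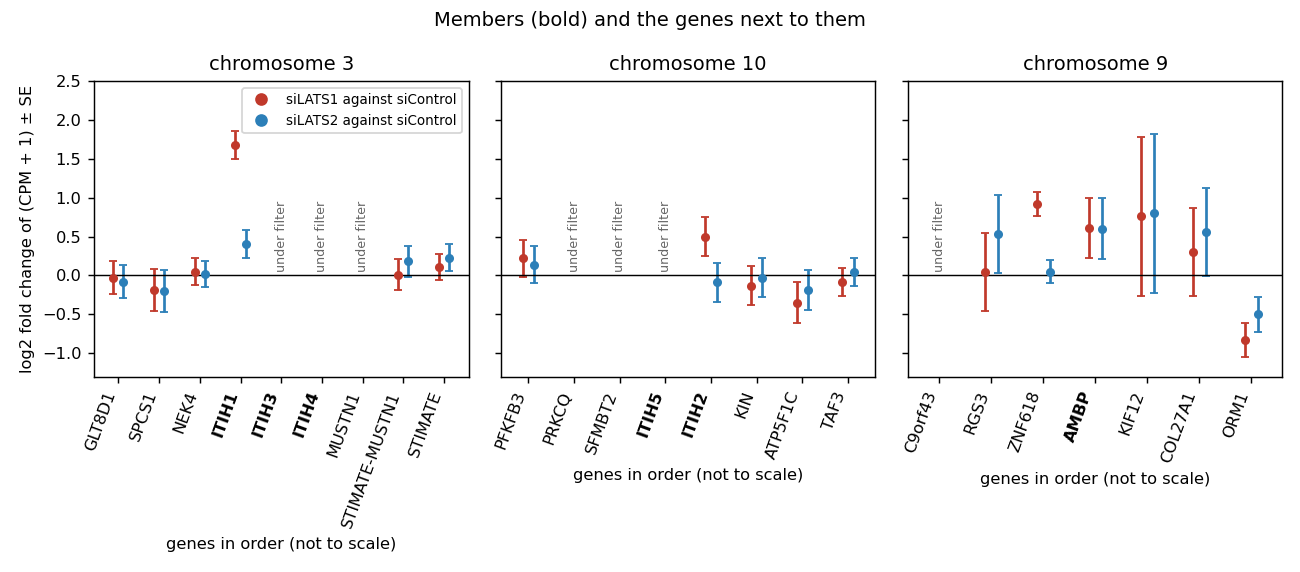
Log2 fold change of CPM + 1 with its standard error (vertical axis) for the members (bold) and their neighbors in chromosomal order (horizontal axis, not to scale) in siLATS1 and siLATS2 against siControl. In siLATS1 against siControl ITIH1, which was chosen for its rise there, lay at 1.68, above NEK4 at 0.05 and the other tested genes of its stretch. Genes marked "under filter" did not enter the fit.

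No sequence window at the gene start of ITIH1 or ITIH2 was available, so neither is shown. The upstream sequences of ITIH3, ITIH4 and AMBP are shown as those of the genes in a cluster with ITIH1 and of the most abundant member. They are the 250 bases before the gene start in RefSeq (GRCh38.p14), 5′ to 3′ on the gene's strand, at chr3:52794546-52794795 (plus), chr3:52830673-52830922 (minus) and chr9:114078301-114078550 (minus). Capitals mark matches on either strand to the TEAD core GGAATG, to GTTAAT (part of the HNF1 site), CAAAG (part of the HNF4 site) and TATAA, which do not overlap in these windows.
ITIH3: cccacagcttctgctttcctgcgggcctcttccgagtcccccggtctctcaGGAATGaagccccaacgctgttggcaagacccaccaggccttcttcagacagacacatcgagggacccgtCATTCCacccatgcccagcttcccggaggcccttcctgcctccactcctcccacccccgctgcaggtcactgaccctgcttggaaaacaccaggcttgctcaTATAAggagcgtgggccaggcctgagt
ITIH4: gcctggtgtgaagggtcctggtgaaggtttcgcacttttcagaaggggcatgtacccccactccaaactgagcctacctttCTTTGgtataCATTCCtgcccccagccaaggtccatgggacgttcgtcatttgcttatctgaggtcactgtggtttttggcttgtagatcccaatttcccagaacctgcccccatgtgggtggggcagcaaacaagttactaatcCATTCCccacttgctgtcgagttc
AMBP: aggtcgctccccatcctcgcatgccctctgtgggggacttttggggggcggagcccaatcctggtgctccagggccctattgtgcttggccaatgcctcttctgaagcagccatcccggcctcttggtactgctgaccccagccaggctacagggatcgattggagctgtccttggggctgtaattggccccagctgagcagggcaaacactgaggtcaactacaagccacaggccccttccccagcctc
The TEAD letters occurred 2 times each upstream of ITIH3 and ITIH4, both genes with few reads in every group, and AMBP held none of the 4 motifs. Of 35116 windows of this length, 11.9% held GGAATG, 6.23% GTTAAT, 42.1% CAAAG and 18.9% TATAA. A match is no evidence of binding, and the lack of these letters in a window says nothing of the factor.

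The profiles most like those of the members over the 9 samples were taken by Pearson's r of log2(CPM + 1), as a description, since the samples share the siRNA groups. The 5 genes most like ITIH1 were OSER1-DT (r = 0.995), FAM20A (0.993), ARSD (0.987), SERPING1 (0.978) and TM4SF4 (0.977). FAM20A, a pseudokinase of the secretory pathway, had 14.04 ± 1.11 CPM in siControl, 45.2 ± 7.87 CPM in siLATS1 and 20.4 ± 3.59 CPM in siLATS2 (SD, n = 3), and TM4SF4, a tetraspan membrane protein, 2.12 ± 0.299, 9.74 ± 2.27 and 2.86 ± 0.145 CPM. The genes most like ITIH2 were FRY (0.986), SP140L (0.981) and TNFRSF11A (0.976), and among those most like AMBP were NAA40 (0.993) and DNAJC22 (0.991). Among the members r was 0.726 between ITIH1 and ITIH2, 0.382 between ITIH1 and AMBP and -0.261 between ITIH2 and AMBP. Between ITIH1 and LATS1 it was -0.908. Over the 8 samples without siControl replicate 1 these were 0.910, 0.283, 0.101 and -0.921, so that ITIH2 and AMBP turned sign, and NAA40 and DNAJC22 had 0.955 and 0.926 with AMBP.

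The hyaluronan list holds the genes that make, bind or cut the acceptor of the heavy chains, and 12 of its 27 genes were tested. In siLATS1 against siControl 1 was called, beside 0.101% of all tested genes, and its median log2 fold change of 0.08 compares with 0.02 over all tested genes. The called gene was HABP2, a secreted hyaluronan-binding serine protease, with 31.5, 48.1 and 38.6 CPM in siControl, 144, 145 and 203 CPM in siLATS1, and 57.9, 52.9 and 56.7 CPM in siLATS2. All siLATS1 samples were above all others, and the siLATS2 samples above siControl. Of the tested genes 5.77% lay above siControl and 5.8% above siLATS2 in all siLATS1 samples, and 2.87% above siControl in all siLATS2 samples. HABP2 was 1 of the 13 called genes, as was ITIH1, and the list was chosen with earlier results of these data known. Its p-values are therefore a description and no independent test. The log2 fold change of HABP2 was 2.03 in siLATS1 (SE 0.20, adjusted p = 0.0207, limma), 1.87 without siControl replicate 1 (adjusted p = 0.0128), and 0.51 in siLATS2 (SE 0.20, adjusted p = 0.95). The siLATS1 call held in 11 of 21 alternatives and was lost in a fit of the 6 samples compared (adjusted p = 0.288), with the replicate block (0.0575) and without any single sample other than siControl replicate 1 (0.0546 to 0.159), at log2 fold changes of 1.87 to 2.14 throughout.
CD44, the main hyaluronan receptor, had 0.0439, 0.603 and 0.295 CPM in siControl and 1.85, 12.3 and 1.33 CPM in siLATS1, a large spread set by siLATS1 replicate 2 (log2 fold change 1.78, SE 0.58, adjusted p = 0.586, limma). The receptor gene LAYN had -0.76 (SE 0.21, adjusted p = 0.40), HMMR -0.29 and the hyaluronidase gene HYAL2 0.44. CD44 had 1.62 and LAYN -0.68 without siControl replicate 1, while HMMR and HYAL2 turned sign to 0.08 and -0.70. TNFAIP6, whose product transfers the heavy chains, had 2 reads in all 9 samples together.

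Of the genes for the chondroitin sulfate linker and chain, on which the heavy chains are assembled, 18 of 21 were tested and 0 were called after adjustment. Their median log2 fold change was 0.18, and -0.09 without siControl replicate 1. CHST15, a sulfotransferase, passed the unadjusted p under 0.05 with a log2 fold change of 0.67 (SE 0.10, adjusted p = 0.0959, limma), as did 2.33% of all tested genes in this direction, and had 0.517 ± 0.0756 CPM in siControl, 1.42 ± 0.159 CPM in siLATS1 and 0.81 ± 0.039 CPM in siLATS2 (SD, n = 3). For the linker enzymes the log2 fold changes in siLATS1 turned sign without siControl replicate 1, from 0.72 to -0.57 for B4GALT7, from 0.56 to -0.63 for B3GAT3 and from 0.79 to -0.59 for the polymerizing factor gene CHPF.

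Of the Kunitz inhibitors, which share the fold of bikunin, 7 of 18 were tested, AMBP included, and 0 passed at either threshold (median 0.06). SPINT1, a membrane inhibitor of hepatocyte growth factor activator, had 0.59 and TFPI, the tissue factor pathway inhibitor, -0.46, and these were 0.08 and -0.05 without siControl replicate 1, while APLP2 had 0.19. Of the acute phase genes 15 of 22 were tested and 0 were called after adjustment (median -0.20). SAA4 (-0.96, SE 0.27, adjusted p = 0.45), ORM1 (-0.83) and ORM2 (-0.72, adjusted p = 0.707, limma) passed only unadjusted, beside 0.589% of all tested genes in this direction. Without siControl replicate 1 the median of the list was -0.31, and 5 genes were lower and 1 higher unadjusted, beside 3.04% and 2.63% of all tested genes. FGL1, a fibrinogen-like hepatokine, had 0.55, HPX, the hemopexin gene, 0.39, and HP, the haptoglobin gene, -0.38, which became 0.85, -0.08 and -0.31 without that sample.

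Among the plasma protease inhibitors 15 of 20 were tested, with a median log2 fold change of 0.47 in siLATS1 against siControl, and 0.43 without siControl replicate 1. The called gene was SERPING1, the C1 inhibitor, at 1.93, 2.49 and 2.32 CPM in siControl, 19.2, 14.9 and 26.0 CPM in siLATS1, and 4.35, 2.11 and 4.55 CPM in siLATS2. Its siLATS1 samples lay far above all others, where 5.77% of the tested genes lay above siControl and 5.8% above siLATS2 in all siLATS1 samples. SERPING1 too was 1 of the 13 called genes, in a list chosen with earlier results known, so its p-values are a description. Its log2 fold change was 2.67 (SE 0.28, adjusted p = 0.0207, limma), and 2.59 without siControl replicate 1 (adjusted p = 0.0156). This call held in 11 of 21 alternatives, with log2 fold changes of 2.47 to 3.16, and was lost in a fit of 6 samples (adjusted p = 0.142), with the replicate block (0.0575), in edgeR (0.052) and in 7 of the other 8 fits without 1 sample (0.0546 to 0.169). At the unadjusted threshold 6 genes of the list were higher and 2 lower, beside 2.33% and 0.589% of all tested genes, and without siControl replicate 1 these were 3 and 2 genes, beside 2.63% and 3.04%. Not every gene of the list encodes an inhibitor, as CPB2, among the 6 higher at 0.77 (1.06 without siControl replicate 1), encodes a carboxypeptidase. AHSG, the fetuin-A gene (-0.92, SE 0.35, adjusted p = 0.707), and KNG1, the kininogen gene (-0.86, SE 0.33, adjusted p = 0.724), were the lower ones, and SERPINF2, the plasmin inhibitor gene, at 1.25 (SE 0.61, adjusted p = 0.979) was not among the higher. These 3 were at -1.33, -0.61 and 0.51 without siControl replicate 1.

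In siLATS2 against siControl 0 genes of the 5 lists were called by limma, after adjustment or unadjusted, where 0.271% of all tested genes passed unadjusted. Without siControl replicate 1, C3 (-0.88), CHST13 (-0.84) and AHSG (-0.74) passed unadjusted, the first pair named after their values were seen. In that fit 39 of the 12874 tested genes were lower and 30 higher at this threshold. The medians of the lists lay between -0.15 for the acute phase genes and 0.15 for the Kunitz and the plasma protease inhibitors, against 0.03 over all tested genes. The largest values were 0.90 for SPINT1, 0.88 for SERPINF2, 0.81 for B4GALT7 and 0.79 for HYAL2, which were 0.40, 0.13, -0.47 and -0.35 without siControl replicate 1.

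**Figure D5:**
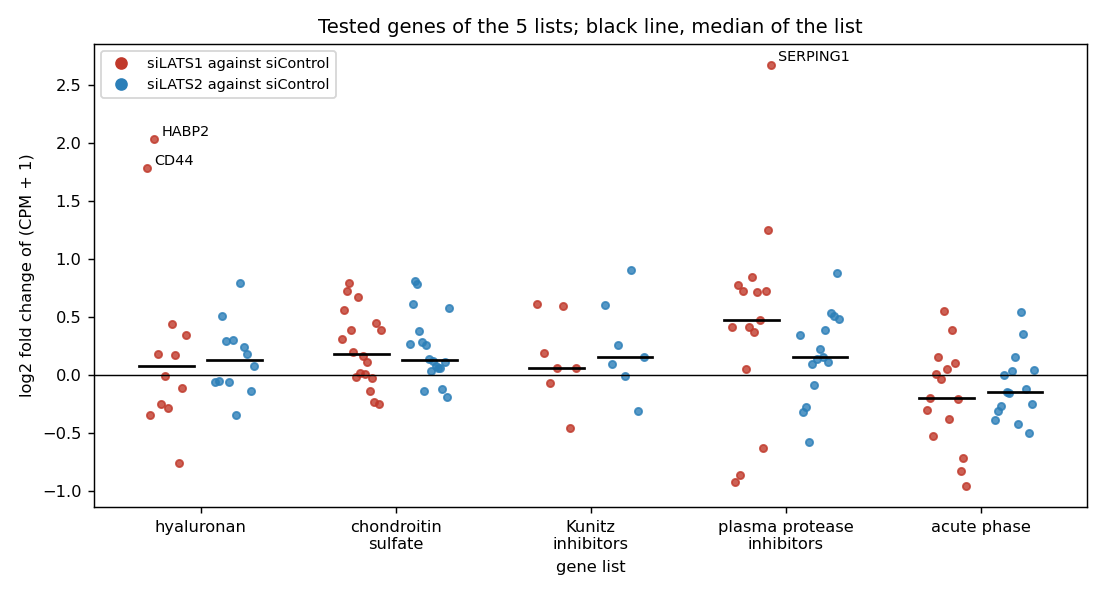
Log2 fold change of CPM + 1 (vertical axis) of each tested gene of the 5 lists (horizontal axis) in siLATS1 and siLATS2 against siControl, with a black line at the median of each list. HABP2 at 2.03, CD44 at 1.78 and SERPING1 at 2.67 lay above the rest of their lists in siLATS1, and the medians of the lists in siLATS2 lay between -0.15 and 0.15.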

How the data were processed

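RNA-seq was made from 9 Huh7 samples. The authors mapped single-end reads with STAR to hg19 (GRCh37), kept unique hits, counted reads over RefSeq exons with QuasR and deposited CPM per gene, with 1 row per file that names no gene and holds no value. The labels name a total RNA kit with ribosomal depletion, and the study's methods polyadenylated RNA. All values were whole multiples of 1 read within 0.01 reads (100% of values), so reads were recovered. CPM were divided by TMM factors (edgeR 4.0.16) and log2(CPM + 1) was fitted over all 9 samples with limma 3.58.1, with trend and Benjamini-Hochberg adjustment, for genes that reached 1 CPM in 3 or more samples. The added 1 understates changes of low genes. edgeR and DESeq2 1.42.0 on the whole reads were alternatives, as were other scalings, filters and pseudocounts. The fit was run on simulated data with the same spread for every gene and no outlying sample, which does not show how it behaves with siControl replicate 1. Gene names came from RefSeq (20454 of 20575 numbers matched) and coordinates and reference transcripts from GENCODE on GRCh37. Members and lists were chosen with earlier results of these data known. Named were the members, LATS1, from each list the 4 largest absolute log2 fold changes in siLATS1 and the 3 largest in siLATS2 among tested genes, the 3 nearest genes on each side of each member, the 5 genes most like ITIH1 and the 3 most like each other tested member, and the genes ranked beside ITIH1, some of which are not reported here. TNFAIP6, C3, CHST13 and CPB2 fall outside this rule and were named after their values were seen.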

Additional observations from a re-analysis of the deposited data

How the results depend on the processing

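Of 404 alternative values over 30 results, 354 counted as unchanged, by a rule that differed between results. Numbers of called genes had to stay within a set factor. ITIH2, AMBP and LATS1 had to keep their direction and their side of the adjusted threshold. For ITIH1, the members under the filter and the heavy chain ratio, a move smaller than the spread between replicates was enough, whatever the adjusted p. The ratio in siLATS1 against siControl thus counted as unchanged at 0.65 against -0.09. The genes called after adjustment in siLATS1 against siControl, 13 as reported, were 8 with TMM factors from the tested genes only (chosen after seeing the data), 5 with at least 1 CPM in every sample, 0 in a fit of the 6 samples compared, 5 in edgeR, 166 in DESeq2 and 0 to 40 when 1 sample was left out, with 40 without siControl replicate 1 and 0 or 1 without any other. Unadjusted, 376 became 221 (without siLATS1 replicate 3) to 730 (without siControl replicate 1). In siLATS2 against siControl the 35 genes became 72 with a pseudocount of 0.1, 68 in edgeR, 70 in DESeq2, 21 in a fit of 6 samples and 11 (without siLATS2 replicate 3) to 69 (without siControl replicate 1) with 1 sample left out. In siLATS1 against siLATS2, 0 genes after adjustment became 3 without the filter, 1 with a pseudocount of 0.5, 100 in DESeq2 and up to 19 (without siControl replicate 1).
ITIH1 in siLATS1 against siControl moved from 1.68 to 3.13 and 2.21 with pseudocounts of 0.1 and 0.5, 3.46 in edgeR and 3.52 in DESeq2, as the added 1 shrinks low values, and stayed at 1.60 to 1.77 with 1 sample left out. Against siLATS2 it moved from 1.28 to 2.08, 1.61, 2.13 and 2.15 in the same order, and in siLATS2 against siControl from 0.40 to 1.06 with a pseudocount of 0.1, 1.34 in edgeR and 1.37 in DESeq2, and was 0.22 to 0.51 with 1 sample left out. AMBP in siLATS1 against siLATS2, 0.0035 as reported, was -0.0049 with the added TMM setting, -0.0035 in edgeR and -0.14 to 0.095 with 1 sample left out. Without siControl replicate 1, ITIH2 and LATS1 in siLATS2 against siControl reversed to 0.13 and 0.019, from ranges over all samples left out of -0.33 to 0.13 and -0.52 to 0.019. ITIH3, ITIH4 and ITIH5 had at most 28 reads in any sample.
The correlation of deviations from the group means ran from -0.87 to 0.92 in the 9 same-numbered pairs, and was over 0.1 in 5 of them. In pairs with different numbers it ran from -0.91 to 0.87. The mean was 0.21 for same-numbered pairs and -0.10 for the others. Whether the replicate numbers pair the samples was not tested. With the replicate number as a block, 0 genes passed after adjustment in siLATS1 against siControl, and ITIH1 stayed at 1.68.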
